A study of Homo sapiens with 12 samples.

Results

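Cytochrome P450 genes were followed through 12 RNA sequencing libraries of human liver cancer cells with and without the methyltransferase gene METTL5. The members are the rows of the deposited table of 58884 genes whose symbol has the form of a P450 gene (CYP, a family number, a subfamily letter and a gene number). CYP51A1, the sterol synthesis enzyme, was left out. This gave 55 genes, and 54 of them are annotated as protein-coding. CYP2D7 is the 1 other, a polymorphic pseudogene.

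P450 enzymes are heme proteins that insert an oxygen atom into their substrates. Members bound to the endoplasmic reticulum receive electrons from the reductase POR and from cytochrome b5, and the mitochondrial members receive them from ferredoxin. Liver cells are known for P450 enzymes that clear drugs and for those that turn cholesterol into bile acids. Other members make or break down steroid hormones, vitamin D, retinoic acid and fatty acid signals, and receptors that bind foreign compounds or bile acids switch many of these genes on.

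HCC-LM3 and Huh-7 are established human liver cancer cell lines. Each was sequenced as untreated wild type (WT) and as a METTL5 knockout (KO) made by infection with a single guide RNA against METTL5, with 3 libraries a group. The labels name neither a control guide nor a clone, so infection and loss of METTL5 cannot be told apart. Nothing states that the 3 libraries of a group came from separate cultures, so each p-value speaks of variation among these libraries alone, part or all of which could be technical.

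Library totals ran from 17495280 to 26415554 counts. METTL5 was at 8.99 ± 0.814 CPM in HCC-LM3 WT and at 9.51 ± 1.55 CPM in Huh-7 WT (SD, n = 3 each), and at 0 counts in all 6 knockout libraries. CPM stands here for counts divided by library size after TMM scaling, which weights each library so that most genes keep their level. Of 9 hepatocyte markers, 1 (HNF4A) averaged at least 1 CPM in HCC-LM3 WT, and APOB, TTR and SERPINA1 were at 0 in its 3 libraries. All 9 reached that level in Huh-7 WT. The TMM factors of the Huh-7 KO libraries, 0.491 to 0.51, stood apart from those of the other 9 libraries, 1.06 to 1.51. HCC-LM3 WT replicate 1 differed from the other replicates of its group by a chi-square per degree of freedom of 35 and 28.8, against 2.87 to 16.4 for all other replicate pairs. These facts bear on several results below and are given beside them.

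CYP1A1, CYP2B6 and CYP3A5 are shown here by the 250 bases before their RefSeq start (GRCh38.p14), because each is a textbook target of a different receptor of foreign compounds: AHR, NR1I3 (CAR) and NR1I2 (PXR). RefSeq promoter entries were found for 38 of the 55 members. Capitals mark exact matches to the letters of the AHR core motif (GCGTG), the TATA box (TATAAA) and the nuclear receptor half-site (TGAACT). They were searched on both strands, with no overlap between them. Whether a match is a working site was not tested.
CYP1A1, chr15:74725529-74725778, minus strand: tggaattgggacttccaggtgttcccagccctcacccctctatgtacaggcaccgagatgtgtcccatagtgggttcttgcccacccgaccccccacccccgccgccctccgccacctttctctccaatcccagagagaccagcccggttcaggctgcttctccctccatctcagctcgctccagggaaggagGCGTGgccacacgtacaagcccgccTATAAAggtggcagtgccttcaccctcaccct
CYP2B6, chr19:40991032-40991281, plus strand: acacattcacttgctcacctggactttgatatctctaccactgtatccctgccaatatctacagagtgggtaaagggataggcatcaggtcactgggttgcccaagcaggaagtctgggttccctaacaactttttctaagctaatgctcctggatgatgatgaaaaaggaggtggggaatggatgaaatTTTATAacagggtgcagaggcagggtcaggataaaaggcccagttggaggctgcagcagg
CYP3A5, chr7:99679997-99680246, minus strand: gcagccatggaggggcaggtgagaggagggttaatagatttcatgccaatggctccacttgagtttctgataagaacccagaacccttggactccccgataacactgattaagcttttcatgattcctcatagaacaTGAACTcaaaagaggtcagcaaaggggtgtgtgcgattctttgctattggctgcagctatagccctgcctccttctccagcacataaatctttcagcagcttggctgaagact

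In these windows the CYP1A1 match to GCGTG begins 57 bases and its match to TATAAA 32 bases before the start. CYP2B6 has TATAAA on the opposite strand, 60 bases before the start, and CYP3A5 has TGAACT 113 bases before it. Among all 35116 windows of this length in the table, 32.2% hold GCGTG, 10.7% TATAAA and 8.8% TGAACT. GC content was 62.4% for the CYP1A1 window, 48% for that of CYP2B6 and 47.6% for that of CYP3A5. The values of the 3 genes are given below.

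Of the 55 members, 23 passed the filter on low counts and were tested, 13 had counts but were not tested, 13 had at most 3 counts in every library and 6 had no count at all. The undetected members were CYP11B1 and CYP11B2, which make cortisol and aldosterone in the adrenal gland, and CYP2A13, CYP3A43, CYP4Z1 and CYP7B1. A count of 0 allows up to 3 counts, which is 0.0783 to 0.35 CPM depending on the library. Among the 13 near the floor were CYP7A1, the rate-limiting enzyme of bile acid synthesis, CYP8B1, which sets the share of cholic acid, and CYP3A4 and CYP2C8, major drug-metabolizing enzymes of adult liver. CYP7A1 had 1 count in 1 library. CYP3A4 had 0 to 3 counts in each HCC-LM3 library and 1 count over all 6 Huh-7 libraries. Among those detected but too low to test were CYP1A2, CYP2A6, CYP2A7, CYP2C19, CYP2D6, CYP2E1, CYP2F1, CYP2W1, CYP3A7, CYP17A1, CYP21A2 and CYP26A1. Several of them share sequence with near-identical relatives (CYP2D6 has 34.4% and CYP21A2 33.2% of their 50-base words in common with other genes), so their low counts are uncertain.

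Summed over all members, the deposited TPM was 52.9 ± 6.12 in HCC-LM3 WT and 170 ± 0.377 in Huh-7 WT (SD, n = 3 each). TPM is a library-scaled level divided by gene length and is used here to compare levels between genes. CYP27A1, the mitochondrial sterol hydroxylase of the bile acid and oxysterol pathways, held 58.4% to 61.6% of the members' TPM in the Huh-7 WT libraries. Its TPM there was 102 ± 2.49, and CYP1A1 followed with 14.6 ± 1.86. CYP26B1 at 9.67 ± 1.31, CYP4F12 at 9.49 ± 0.851 and CYP2S1 at 9.38 ± 0.585 overlapped in their libraries and had no order beyond their spread. In HCC-LM3 WT the order by TPM was different. CYP2S1, a P450 of tissues outside the liver with no settled role, led with 15.9 ± 1.09, clear of all others. CYP1A1 at 8.36 ± 1.53, CYP26B1 at 7.65 ± 1.77 and CYP11A1 at 6.85 ± 0.337 followed and overlapped, and 9 or 10 members reached 1 TPM in a library.

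Between the untreated lines, 21 of the 23 tested members differed, 6 higher and 15 lower in HCC-LM3 (edgeR quasi-likelihood test, Benjamini-Hochberg adjusted p under 0.05 over 16537 genes). Of all tested genes, 82.8% differed between the lines, 41.8% higher and 41% lower. CYP2R1 and CYP2S1 were the 2 members not called. The members' median log2 difference was -2.02 against 0.03 for all tested genes. All 21 calls kept their direction with library totals alone, with DESeq2 size factors and with offsets for GC content and length, and CYP2S1 was added as higher in HCC-LM3 with the totals and with these GC and length offsets. Under the offsets 83% of all tested genes differed between the lines, 43.3% higher and 39.7% lower.

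**Figure D1:**
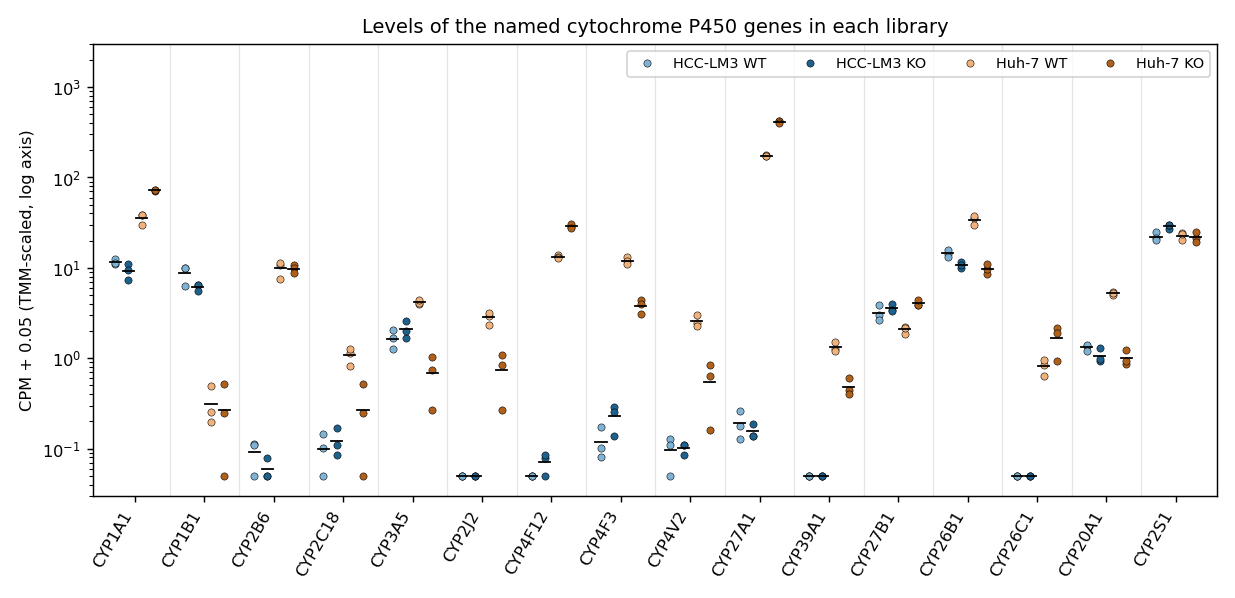
Levels of the 16 members described library by library, as TMM-scaled CPM plus 0.05 on a log axis. Points are libraries and bars are group means. CYP27A1, CYP4F12, CYP4F3 and CYP2B6 sit far above in the Huh-7 libraries, and CYP2J2, CYP39A1 and CYP26C1 lie at 0 in all HCC-LM3 libraries.

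Loss of METTL5 was followed by 4 member calls in HCC-LM3 and 16 in Huh-7. In HCC-LM3, CYP2S1 rose and CYP1A1, CYP1B1 and CYP26B1 fell, by less than 1.5-fold each. That is 17.4% of the tested members, where 26.8% of all tested genes were called in HCC-LM3, 14% higher and 12.9% lower. In Huh-7, 7 members rose and 9 fell with TMM scaling, 69.6% of the tested members, where 75% of all tested genes were called, 31.7% higher and 43.2% lower. The share of members called was near or below that of all genes in both lines. These shares count members that the edgeR test could not call in a line. CYP2J2, CYP39A1 and CYP26C1 had no count in HCC-LM3, and CYP24A1 had none in Huh-7. They passed the filter through the other line and enter the medians below at 0.00. The median log2 fold change of the tested members was -0.11 in HCC-LM3, against 0.00 for all tested genes, and -0.06 in Huh-7, against -0.30. With library totals alone, all 7 Huh-7 rises lost their call, and 12 members were lower and 0 higher. With these totals, 10795 of all 16537 tested genes were lower and 1993 higher. That scaling put the median of all tested genes at -1.40, and DESeq2 size factors put it at 0.00.

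Summed levels of cell type markers, computed with TMM scaling alone, also differed between Huh-7 WT and KO. The TMM factors were 1.06 to 1.1 in these WT libraries and 0.491 to 0.51 in KO, and their part in the sums was not tested. The summed level of 4 biliary markers was 554 to 588 CPM in WT libraries, with KRT7 at 0, and 1660 to 1760 CPM in KO, and 3 of the 4 averaged at least 1 CPM in each group. These markers did not all rise with their sum. EPCAM fell from 15.4 ± 1.07 to 4.2 ± 1.53 CPM (log2 fold change -1.87, edgeR adjusted p = 3.97e-10). That of 4 immune markers was 45.8 to 52.6 CPM in WT and 96.2 to 99.9 CPM in KO, with 2 of 4 at that level in each group and PTPRC at 0 in KO. The 5 fibroblast markers summed to 23.9 to 26 CPM in WT, where 4 averaged at least 1 CPM, and to 4.66 to 6.41 CPM in KO, where 2 did and DCN was at 0. The 3 endothelial markers summed to 13.2 to 13.9 CPM in WT and 5.71 to 6.04 CPM in KO, with 1 of 3 at that level in each. For the 9 hepatocyte markers the sums were 14000 to 15100 CPM in WT and 20100 to 20700 CPM in KO. All 9 hepatocyte markers averaged at least 1 CPM in KO too, and with TMM scaling they went both ways. APOB, the apolipoprotein of liver lipoproteins, had a log2 fold change of -4.24 and TTR, the thyroid hormone carrier of plasma, one of 1.77. With GC and length offsets APOB was at -1.84. The direction of some moved with the setting. TF was at -0.48 with TMM and 1.31 with GC and length offsets, and SERPINA1 at 0.72 with TMM and -0.39 with library totals. In HCC-LM3 the sums in WT and KO libraries were 240 to 331 and 319 to 363 CPM for biliary, 37.8 to 46 and 52.8 to 56.4 CPM for immune and 23.7 to 27.8 and 17.3 to 18.4 CPM for fibroblast markers. They were 2.06 to 2.72 and 3.26 to 3.71 CPM for endothelial and 26.7 to 30.8 and 32.5 to 39.8 CPM for hepatocyte markers. PTPRC and CD3E, which define leukocytes and T cells, were at 0 in all HCC-LM3 libraries. The part of these markers in the members' changes was not tested.

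The test of the difference between the lines called 11 members, 47.8% of those tested, where 61.6% of all tested genes were called. Among those tested were CYP2J2, CYP39A1, CYP26C1 and CYP24A1, without a count in 1 line, for which this edgeR test gave no usable standard error. The knockout effect was higher in HCC-LM3 than in Huh-7 for 6 members (37.7% of all genes) and lower for 5 (23.9% of all genes). With library totals alone it was higher for 8 and lower for 0, and of all 16537 tested genes 9504 were higher and 1574 lower. The GC and length offsets left 7 members called, 5 higher and 2 lower, where 49% of all tested genes were called, 21.9% higher and 27.1% lower. Without HCC-LM3 WT replicate 3, or without Huh-7 KO replicate 3, 7 were called, 4 higher and 3 lower. CYP26B1 fell in both lines and, with TMM scaling, fell further in Huh-7. With length offsets the difference was 0.25 (edgeR adjusted p = 0.248).

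Members of drug and foreign compound metabolism numbered 19, of which 6 were tested. In HCC-LM3 KO 2 fell (CYP1A1 and CYP1B1), and in Huh-7 KO 1 rose with TMM scaling but not with library totals (CYP1A1) and 2 fell (CYP2C18 and CYP3A5). Their summed level was 22.7 ± 3.03 CPM in HCC-LM3 WT and 53.9 ± 6.8 CPM in Huh-7 WT (SD, n = 3 each). CYP1A1 (chr15:74719542-74725610, GRCh38 in GENCODE 29) oxidizes polycyclic aromatic hydrocarbons and is induced through AHR. Its levels were 11, 12.5 and 11.3 CPM in HCC-LM3 WT and 10.9, 9.41 and 7.32 CPM in HCC-LM3 KO. In Huh-7 it was at 38.4, 30.1 and 38.5 CPM in WT and at 71.1, 73.3 and 72.2 CPM in KO. All 3 Huh-7 KO libraries lay above all WT libraries, and in HCC-LM3 the highest KO library lay just below the lowest WT library. The log2 fold change was -0.34 ± 0.13 (SE) in HCC-LM3 (edgeR adjusted p = 0.0431) and 1.02 ± 0.12 in Huh-7 (adjusted p = 1.92e-09). With library totals alone the Huh-7 value turned to -0.09 (adjusted p = 0.55). The HCC-LM3 call was lost under 11 of 22 alternatives, among them DESeq2 size factors, the DESeq2 Wald test and limma-voom.

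CYP1B1 (chr2:38066973-38109902), another AHR target, which hydroxylates estradiol, was mainly expressed in HCC-LM3, where it averaged 8.75 ± 2.14 CPM in WT against 0.262 ± 0.155 CPM in Huh-7 WT (log2 difference 5.06 ± 0.32, edgeR adjusted p = 1.53e-15). It was at 6.28, 9.95 and 10 CPM in HCC-LM3 WT and at 6.47, 6.35 and 5.44 CPM in KO. The lowest WT library, replicate 1, lay inside the KO range, so the groups overlapped. The fall of 0.53 on the log2 scale passed the test narrowly (SE 0.20, edgeR adjusted p = 0.0468), and it too was lost under 11 of 22 alternatives. The gene overlaps RMDN2-AS1 on its own strand and RMDN2 and CYP1B1-AS1 on the other strand, and the strand setting of the counting is not given in the sources used here. In Huh-7 it stood at 0.146, 0.438 and 0.203 CPM in WT and at 0.197, 0.466 and 0 CPM in KO, too low to read a change.

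CYP3A5 (chr7:99648194-99680026), the CYP3A enzyme of adult tissues beside CYP3A4, was at 3.92, 4.07 and 4.41 CPM in Huh-7 WT and at 0.986, 0.699 and 0.22 CPM in Huh-7 KO. In HCC-LM3 it was at 1.2, 1.98 and 1.62 CPM in WT and at 2.52, 1.62 and 1.97 CPM in KO, and the groups overlapped. The Huh-7 KO libraries all lay below the WT libraries, a fall of 2.67 on the log2 scale (SE 0.36, edgeR adjusted p = 4.09e-08), the largest fall of a member there. The HCC-LM3 value was 0.34 ± 0.25 (adjusted p = 0.341), and the lines differed by 3.01 ± 0.44 (adjusted p = 4.35e-07). Both calls held in each alternative tried.

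CYP2B6 (chr19:40991250-41018398), the CAR target that hydroxylates bupropion and cyclophosphamide, was a Huh-7 gene, with 10.6, 7.44 and 11.4 CPM in WT and 10.6, 9.9 and 8.68 CPM in KO. HCC-LM3 libraries held 0 to 0.0634 CPM of it. Its Huh-7 groups overlapped and the log2 fold change was -0.01 ± 0.20 (edgeR adjusted p = 0.994). This value moved with the scaling, to 0.43 with DESeq2 size factors (adjusted p = 0.049) and to -1.12 with library totals (adjusted p = 0.000138). CYP2B6 shares 8.4% of its 50-base words with other genes, chiefly the pseudogene CYP2B7P. CYP2C18 (chr10:94683621-94736190), a CYP2C enzyme of skin and other epithelia, was at 0.768, 1.09 and 1.22 CPM in Huh-7 WT and at 0.197, 0.466 and 0 CPM in KO. The groups did not overlap and the log2 fold change was -2.21 ± 0.67 (edgeR adjusted p = 0.00366), but it was -1.44 (adjusted p = 0.0806) with GC and length offsets. HCC-LM3 held 0 to 0.119 CPM of it, and 36.6% of its 50-base words are shared with other genes, so its reads are uncertain.

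Fatty acid and eicosanoid P450 genes numbered 12, of which 5 were tested. In HCC-LM3 0 were called by the edgeR test, 1 (CYP4F3) had an unadjusted p under 0.05, and 0 were called by the DESeq2 Wald test or limma-voom. In Huh-7 KO 1 rose with TMM scaling but not with library totals (CYP4F12) and 3 fell (CYP4F3, CYP2J2 and CYP4V2), and CYP2U1 was not called. CYP4F3 (chr19:15640897-15662825), which inactivates leukotriene B4, and CYP4F12 (chr19:15672757-15697174), which hydroxylates fatty acids, are neighbours on chromosome 19. CYP4F3 was at 13, 11.9 and 11.1 CPM in Huh-7 WT and at 3.06, 4.31 and 3.96 CPM in KO. CYP4F12 was at 13.7, 13.1 and 12.7 CPM in WT and at 28.5, 30.2 and 27.8 CPM in KO. The 2 neighbours were thus at similar counts in WT and on opposite sides in KO, with no overlap between groups for either. CYP4F3 fell by 1.68 on the log2 scale (SE 0.21, edgeR adjusted p = 1.37e-08), and its value was -0.40 (adjusted p = 0.0879) with offsets for gene length. CYP4F12 rose by 1.13 ± 0.14 (edgeR adjusted p = 1.57e-08) with TMM scaling and by 0.02 (adjusted p = 0.941) with library totals. CYP4F12 was at 0 in the 3 HCC-LM3 WT libraries, at least 149-fold lower than in Huh-7 WT against a floor of 3 counts per library. CYP4F3 stood at 0.0317, 0.0522 and 0.122 CPM in HCC-LM3 WT and at 0.237, 0.207 and 0.0896 CPM in KO (log2 fold change 1.31 ± 0.59, edgeR adjusted p = 0.0982), a few counts a library. Shared 50-base words made up 8.6% of CYP4F3 and 2% of CYP4F12.

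CYP2J2 (chr1:59893308-59926790), the arachidonic acid epoxygenase, had no count in any HCC-LM3 library, at least 31.4-fold below Huh-7 WT. In Huh-7 it was at 2.31, 2.89 and 3.14 CPM in WT and at 0.789, 1.05 and 0.22 CPM in KO. The groups did not overlap, and the fall was 2.01 on the log2 scale (SE 0.44, edgeR adjusted p = 0.000143). CYP4V2 (chr4:186191520-186213456), the fatty acid hydroxylase altered in Bietti crystalline dystrophy, was at 2.38, 2.23 and 2.94 CPM in Huh-7 WT and at 0.789, 0.583 and 0.11 CPM in KO. Again no KO library reached the WT range, and the log2 fold change was -2.31 ± 0.47 (edgeR adjusted p = 4.07e-05). With GC and length offsets it was -0.70 (adjusted p = 0.22). CYP2U1, which hydroxylates long-chain fatty acids, was the member of this group that was higher in HCC-LM3, at 1.45 ± 0.222 CPM against 0.209 ± 0.0857 CPM in Huh-7 WT (edgeR adjusted p = 1.13e-07).

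Bile acid and cholesterol members numbered 6, of which CYP27A1 and CYP39A1 were tested. In Huh-7 KO CYP27A1 rose with TMM scaling but not with library totals, and CYP39A1 fell. In HCC-LM3 0 of them were called by the edgeR test, the DESeq2 Wald test or limma-voom, and 0 had an unadjusted edgeR p under 0.05. CYP27A1 (chr2:218781749-218815293) was at 176, 175 and 172 CPM in Huh-7 WT and at 417, 426 and 402 CPM in KO. The groups lay far apart, with a log2 fold change of 1.25 ± 0.09 (edgeR adjusted p = 2.6e-14). The size of the rise moved with the scale. It was 1.69 (edgeR adjusted p = 1.54e-17) with DESeq2 size factors and 0.56 (adjusted p = 2.98e-08) with GC and length offsets. With library totals it was 0.14 (adjusted p = 0.0726). The deposited TPM went the other way, from 102 ± 2.49 in WT to 77.3 ± 0.538 in KO. In HCC-LM3 it was at 0.0783 to 0.214 CPM in WT and at 0.089 to 0.138 CPM in KO, a log2 difference of -10.27 ± 0.17 between the WT lines (edgeR adjusted p = 7.2e-32). CYP39A1 (chr6:46549580-46652830), the hydroxylase of 24-hydroxycholesterol, was at 1.21, 1.14 and 1.47 CPM in Huh-7 WT and at 0.394, 0.35 and 0.549 CPM in KO. The log2 fold change was -1.54 ± 0.51 (edgeR adjusted p = 0.00781), and -0.25 (adjusted p = 0.704) with GC and length offsets. It had no count in HCC-LM3, at least 14.4-fold below Huh-7 WT.

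Steroid hormone members numbered 6, and CYP11A1 and CYP19A1 were tested. CYP11A1, the mitochondrial enzyme that cleaves the cholesterol side chain, was at 4.68 ± 0.458 CPM in HCC-LM3 WT and at 0.129 ± 0.128 CPM in Huh-7 WT (log2 difference 4.99 ± 0.43, edgeR adjusted p = 6.66e-11). HCC-LM3 KO libraries held 4.33 ± 0.478 CPM of it, and the groups overlapped (adjusted p = 0.815). Its Huh-7 call (1.89 ± 0.74, edgeR adjusted p = 0.0245) rested on 7, 3 and 0 counts in WT and 5, 0 and 10 counts in KO, which overlap. CYP19A1, the aromatase that makes estrogens, was at 0.789 ± 0.378 CPM in Huh-7 WT and at 0.25 ± 0.0406 CPM in KO, a fall of 1.63 on the log2 scale (SE 0.64, edgeR adjusted p = 0.0222) that was lost with DESeq2 size factors and with GC and length offsets. CYP17A1 and CYP21A2, the other enzymes of the adrenal pathway with counts, had at most 8 and 14 counts in a library.

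All 3 vitamin D members were tested. CYP27B1 (chr12:57762334-57768986), which makes active vitamin D, was at 1.79, 2.19 and 2.13 CPM in Huh-7 WT and at 3.84, 3.84 and 4.4 CPM in KO. No library of the 2 groups overlapped, and the log2 fold change with TMM scaling was 0.99 ± 0.24 (edgeR adjusted p = 0.000369). With another scaling it turned: it was -0.12 (adjusted p = 0.657) with library totals and was 0.50 (adjusted p = 0.0643) with GC and length offsets. In HCC-LM3 it was at 2.95, 2.59 and 3.79 CPM in WT and at 3.97, 3.38 and 3.29 CPM in KO, and the groups overlapped (log2 fold change 0.20 ± 0.19, edgeR adjusted p = 0.5). The gene overlaps METTL1 on the same strand. CYP2R1, a vitamin D 25-hydroxylase, was at 2.15 ± 0.355 CPM in Huh-7 WT and 1.4 ± 0.356 CPM in KO (log2 fold change -0.63 ± 0.32, edgeR adjusted p = 0.0768), and at 1.66 ± 0.469 and 1.52 ± 0.171 CPM in HCC-LM3 WT and KO. CYP24A1, which breaks down active vitamin D, had no count in Huh-7, at least 4.32-fold below HCC-LM3 WT, where it stood at 0.566 ± 0.21 CPM.

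Retinoid members numbered 4, of which 3 were tested. CYP26B1 (chr2:72129238-72148038), which clears retinoic acid, was the 1 member called lower in both lines. It was at 14.1, 15.9 and 13.2 CPM in HCC-LM3 WT and at 11.7, 10 and 10.7 CPM in KO. In Huh-7 it was at 35.5, 29.6 and 37.3 CPM in WT and at 8.58, 9.79 and 10.9 CPM in KO. Neither line had an overlap between WT and KO, and the KO means were 10.8 ± 0.844 CPM in HCC-LM3 and 9.75 ± 1.15 CPM in Huh-7. The falls were 0.41 on the log2 scale in HCC-LM3 (SE 0.12, edgeR adjusted p = 0.0124) and 1.81 in Huh-7 (SE 0.14, adjusted p = 1.17e-13), and the difference between the lines was 1.40 ± 0.19 (adjusted p = 6.23e-08). With offsets for gene length alone the Huh-7 fall was 0.62 on the log2 scale and the difference was 0.25 (adjusted p = 0.248). CYP26C1 (chr10:93060808-93069536), a related retinoic acid hydroxylase, had no count in HCC-LM3 and was at 0.585, 0.788 and 0.912 CPM in Huh-7 WT and at 0.887, 2.1 and 1.87 CPM in KO. Its groups overlapped, and its call with TMM scaling was narrow (log2 fold change 1.08 ± 0.45, edgeR adjusted p = 0.0319). With library totals the value was -0.02 (adjusted p = 0.984). It overlaps AL358613.3 on its own strand, and 16.8% of its 50-base words are shared. CYP27C1, a retinoid desaturase of skin, averaged 1.77 ± 0.19 CPM in HCC-LM3 WT. Its call in Huh-7 (2.72 ± 1.16, edgeR adjusted p = 0.035) rested on 6 counts in KO replicate 2 and none in the other KO libraries, and it was lost without that library. The deposited TPM of that library, 9.47, was the highest of any group for this gene.

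Of the 5 members with no settled role, CYP2S1 and CYP20A1 were tested. CYP2S1 (chr19:41193049-41207539) was the member that rose in HCC-LM3, from 24.8, 21.2 and 20.3 CPM in WT to 27.1, 29.5 and 30.1 CPM in KO. The groups did not overlap, though by a small gap, and the log2 fold change was 0.39 ± 0.11 (edgeR adjusted p = 0.00988). It was 0.14 (adjusted p = 0.317) under GC and length offsets and 0.24 with library totals (adjusted p = 0.0888). In Huh-7 it was at 24.1, 20.1 and 23.9 CPM in WT and at 21.5, 24.7 and 19.1 CPM in KO, which overlapped (log2 fold change -0.06 ± 0.12, edgeR adjusted p = 0.671). That Huh-7 value was 0.38 with DESeq2 size factors (adjusted p = 0.00735) and -1.17 with library totals (adjusted p = 1.27e-08). CYP20A1 (chr2:203238940-203305611), an orphan P450, was at 4.98, 5.34 and 5.27 CPM in Huh-7 WT and at 1.18, 0.816 and 0.879 CPM in KO. The groups lay apart, and the fall of 2.42 on the log2 scale (SE 0.29, edgeR adjusted p = 3.63e-09) kept its call in each alternative tried. In HCC-LM3 it was at 1.3, 1.36 and 1.16 CPM in WT and at 0.89, 1.24 and 0.926 CPM in KO (log2 fold change -0.33 ± 0.25, edgeR adjusted p = 0.356).

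**Figure D2:**
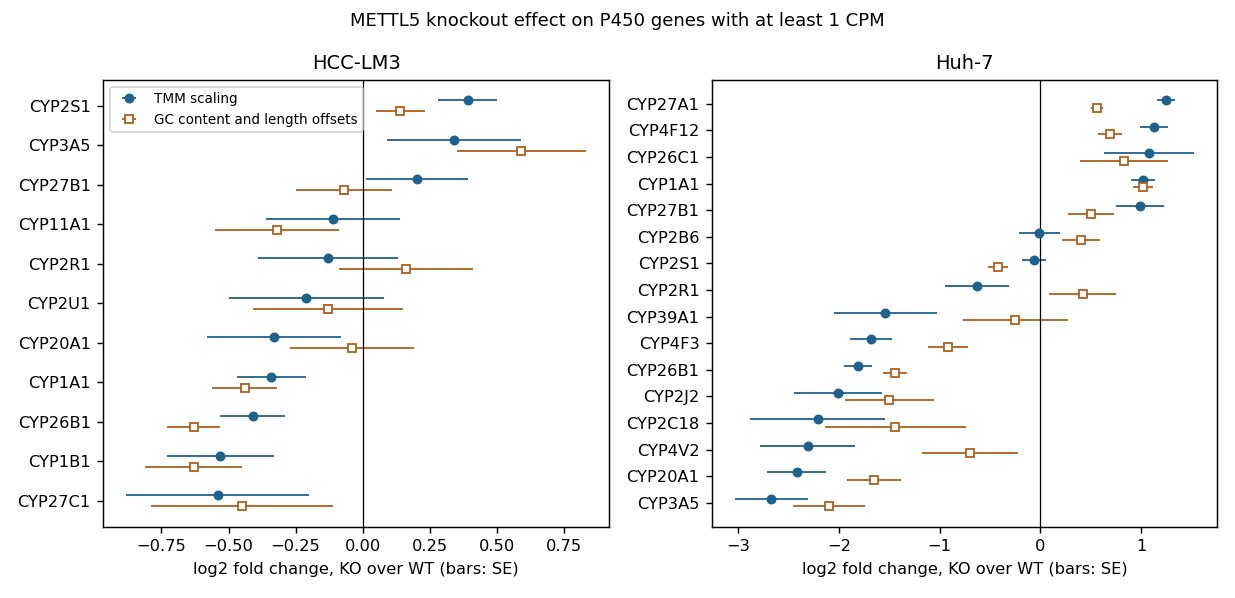
Log2 fold changes (KO over WT) of tested members that averaged at least 1 CPM in a group of the line, 11 in HCC-LM3 and 16 in Huh-7, with TMM scaling (filled circles) and with GC and length offsets (open squares). Bars are standard errors. With TMM scaling HCC-LM3 values run from -0.54 to 0.39 and Huh-7 values from -2.67 to 1.25, and the Huh-7 values above 0.9 lie near 0 when library totals are used instead.

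All 4 HCC-LM3 calls were lost when WT replicate 2 was left out, and 1 remained without WT replicate 3, without KO replicate 2 or without KO replicate 3. Without Huh-7 KO replicate 1, a library of the other line in the same fit, 2 remained. Without WT replicate 1, the library that stood apart, all 4 remained. With GC and length offsets, CYP1A1 (-0.44, edgeR adjusted p = 0.0094), CYP1B1 (-0.63, adjusted p = 0.017) and CYP26B1 (-0.63, adjusted p = 7.2e-05) remained called lower, and 17.8% of all tested genes were called, 8.99% higher and 8.8% lower.

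Which Huh-7 members counted as risen depended on the scaling of the libraries. The summed member level rose from 330 ± 12.1 to 577 ± 17.9 CPM with TMM scaling, but the members' share of the counts fell, from 0.0348% to 0.0358% in WT libraries to 0.0285% to 0.0292% in KO libraries. In the deposited TPM the sum fell from 170 ± 0.377 to 106 ± 5.33, with CYP1A1 going from 14.6 ± 1.86 to 9.45 ± 0.27 and CYP4F12 from 9.49 ± 0.851 to 6.67 ± 0.336. DESeq2 size factors gave 9 higher and 7 lower members, with CYP2B6 and CYP2S1 added as higher and CYP19A1 and CYP39A1 lost. Of all 16537 tested genes, 6511 were higher and 5853 lower with these factors. All 9 falls found with TMM scaling were also called with library totals.

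**Figure D3:**
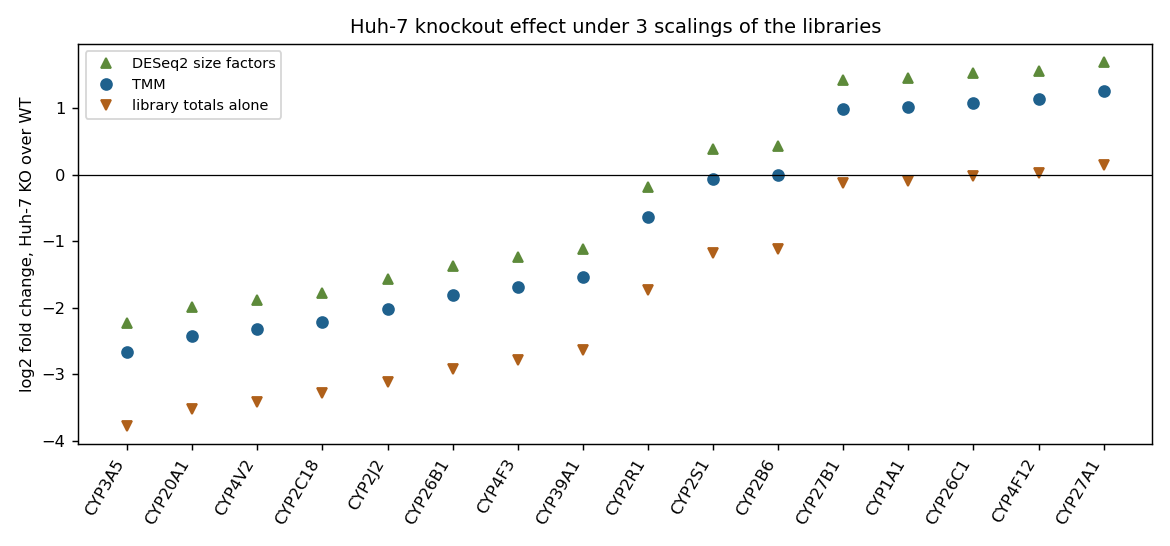
Log2 fold change in Huh-7 (KO over WT) of the 16 members with at least 1 CPM under 3 scalings: DESeq2 size factors, TMM and library totals alone. The order of the members stays the same and the whole set shifts, so that CYP27B1, CYP1A1 and CYP26C1 lie near 1 with TMM and between -0.12 and -0.02 with library totals.

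Ratios of counts within a library do not change with scaling, and pairs were chosen for them after the values had been seen. The ratio of CYP1A1 to CYP26B1 was 1.08, 1.02 and 1.03 in Huh-7 WT and 8.29, 7.49 and 6.64 in KO. In HCC-LM3 it was 0.782, 0.787 and 0.861 in WT and 0.927, 0.938 and 0.682 in KO. For this pair the Huh-7 groups lay far apart and those of HCC-LM3 overlapped. The ratio of the neighbours CYP4F12 to CYP4F3 was 1.06, 1.1 and 1.15 in Huh-7 WT and 9.32, 7 and 7.03 in KO. CYP27A1 to CYP26B1 went from 4.97, 5.92 and 4.62 to 48.6, 43.5 and 37. CYP2B6 to CYP3A5, the CAR and PXR targets, went from 2.71, 1.83 and 2.59 to 10.8, 14.2 and 39.5. CYP2S1 to CYP26B1 moved in both lines, from 1.76, 1.33 and 1.55 to 2.32, 2.93 and 2.8 in HCC-LM3 and from 0.681, 0.678 and 0.64 to 2.51, 2.52 and 1.76 in Huh-7, with no overlap in either. In all 5 pairs, picked by their values, the lowest Huh-7 KO library lay above the highest WT library. The denominators CYP26B1 and CYP4F3 are 4732 and 5053 bases long, and genes over 4000 bases had a Huh-7 median log2 fold change of -1.74. With length offsets the values of CYP26B1 and CYP4F3 were -0.62 and -0.40. A shift with gene length or GC content stays in these ratios, and its part was not tested.

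**Figure D4:**
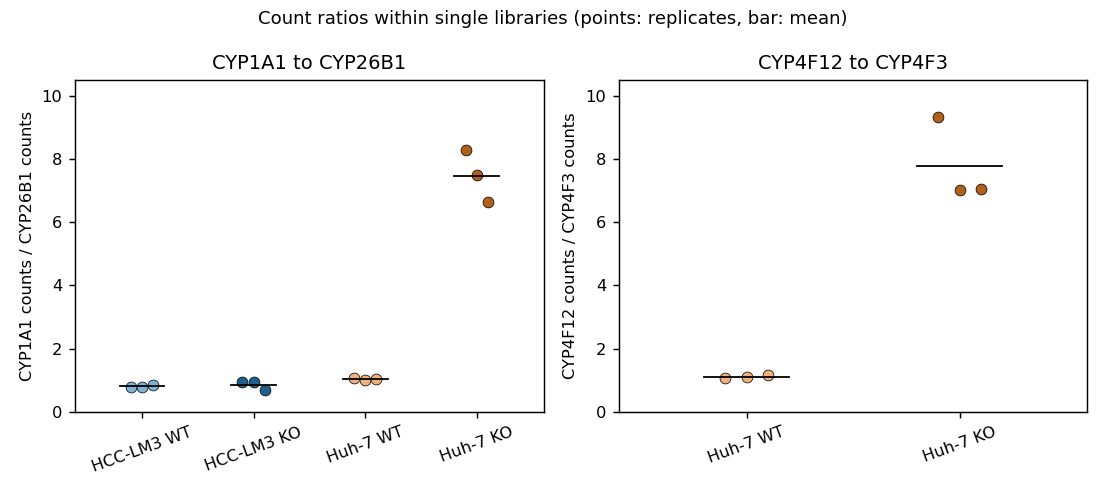
Count ratios within single libraries for CYP1A1 to CYP26B1 in all 4 groups and for CYP4F12 to CYP4F3 in Huh-7. Points are libraries and bars are means. Both ratios lie near 1 in Huh-7 WT and between 6.64 and 9.32 in Huh-7 KO, while CYP1A1 to CYP26B1 stays between 0.682 and 0.938 in HCC-LM3.

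In Huh-7 the changes of all tested genes moved with GC content and gene length, and those of the members with GC content but little with length. Over the 16 members with at least 1 CPM in Huh-7, the log2 fold change had a Pearson correlation of 0.71 with transcript GC content (Spearman 0.63) and of -0.14 with the log of gene length (Spearman 0.14). These are correlations across genes in the same libraries, and genes are not independent replicates. Over 13626 tested genes the Pearson correlations were 0.51 and -0.59. In HCC-LM3 they were 0.24 with GC content and -0.60 with length over 11 members, and 0.57 and -0.08 over 12764 tested genes. In Huh-7 all 7 members with a GC content under 48% had negative values, with a median of -2.21. Genes of that GC band had a median of -1.59. The 6 members over 55% had a median of 1.03 against 0.75 for genes of that band. Length set the members apart from other genes in 1 band: the 4 members under 2000 bases had a median of -2.21, and genes of that length a median of 1.17. CYP3A5, CYP20A1 and CYP2J2 are the 3 of them that fell, each with a GC content of 42.1% to 45.5%, and CYP27A1 at 58.7% rose. CYP26B1, with 58.8% GC and 4732 bases, fell, as did the 5053 bases of CYP4F3. With GC and length offsets, 10 members were called in Huh-7, where 59.4% of all tested genes were called, 33.5% higher and 25.9% lower. The 4 higher were CYP1A1, CYP27A1, CYP27C1 and CYP4F12, and the 6 lower were CYP20A1, CYP26B1, CYP2J2, CYP2S1, CYP3A5 and CYP4F3. The part of GC content, length and library composition in the Huh-7 result was not tested beyond these fits.

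**Figure D5:**
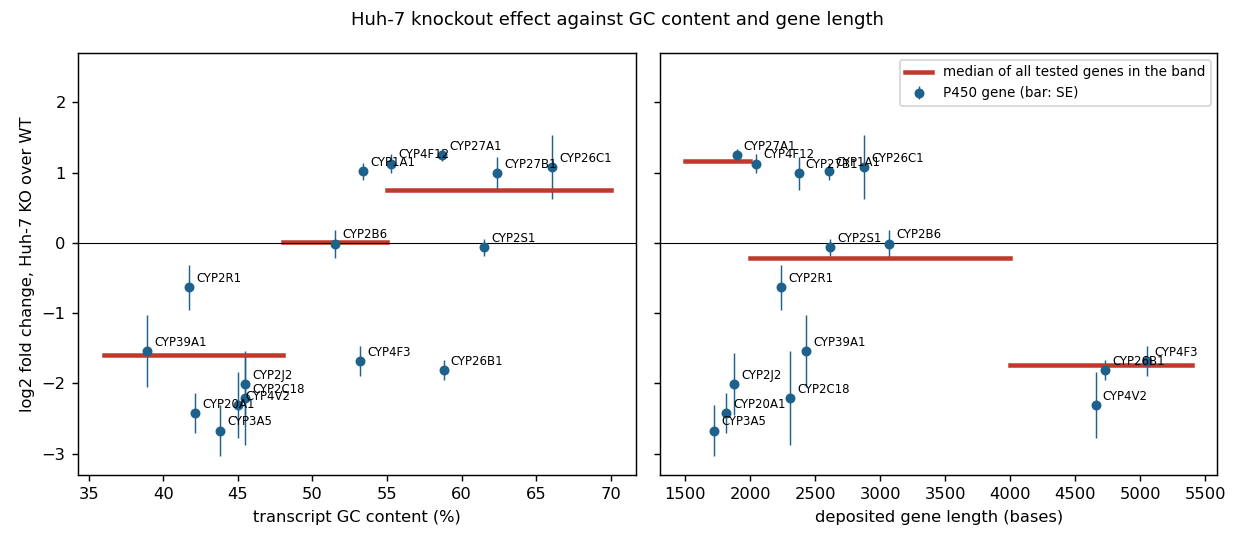
Log2 fold change in Huh-7 (KO over WT, TMM scaling, bars SE) of the 16 members with at least 1 CPM against transcript GC content in percent and deposited gene length in bases. Red lines give the median of all tested genes in each band. CYP3A5, CYP20A1 and CYP2J2 lie far below the line for genes under 2000 bases and less far below the line for genes under 48% GC.

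Among 40 genes that serve P450 enzymes (10 electron donors, 10 of heme synthesis and breakdown, 20 receptors and factors), 13 were called higher and 3 lower in HCC-LM3 KO, with a median log2 fold change of 0.11, where 26.8% of all tested genes were called, 14% higher and 12.9% lower. With library totals 7 were higher and 6 lower, and with GC and length offsets 7 and 4. Of all 16537 tested genes, 1199 were higher and 3423 lower with library totals. Under GC and length offsets 8.99% were higher and 8.8% lower. Leaving out HCC-LM3 WT replicate 3 or KO replicate 1 reduced the 16 calls to 9 or 10. Heme oxygenase HMOX1, which breaks heme down, rose from 58.2 ± 6.52 to 108 ± 14 CPM (log2 fold change 0.90, edgeR adjusted p = 1.82e-07). The retinoic acid receptor RARA rose by 0.68 (adjusted p = 1.05e-05), CEBPB, a liver transcription factor, by 0.49 and the oxysterol receptor NR1H3 by 0.47. The heme synthesis enzyme CPOX fell by 0.53 (adjusted p = 0.0017), the heme-binding protein PGRMC1 by 0.45 and AHR by 0.44 (adjusted p = 0.0416). AHR was at -0.10 there under GC and length offsets.

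In Huh-7 KO 19 of these 40 genes were higher and 12 lower, with 8 and 24 under library totals and 22 and 10 under GC and length offsets. Of all tested genes 75% were called in Huh-7, 31.7% higher and 43.2% lower, so the share of partner genes called was near that of all genes. Library totals put 1993 of all 16537 tested genes higher and 10795 lower, and length offsets put 6376 higher and 5034 lower. Under GC and length offsets 33.5% were higher and 25.9% lower. Of 10 electron donors 7 were higher and 2 lower, but 3 and 6 with library totals, and of 10 heme genes 7 were higher and 1 lower, but 3 and 4 with library totals. Of 20 receptors and factors 5 were higher and 9 lower, with 2 and 14 under library totals, 8 and 6 under length offsets and 5 and 8 under GC and length offsets. The mitochondrial ferredoxin FDX2 rose from 30.8 ± 1.04 to 122 ± 2.92 CPM and cytochrome b5 (CYB5A) from 48.7 ± 4.19 to 157 ± 5.94 CPM. The heme synthesis enzyme UROD rose by 1.69 on the log2 scale. With library totals these 3 rises were 0.88, 0.58 and 0.58. The other ferredoxin, FDX1, was at 0.59 with TMM scaling (edgeR adjusted p = 0.0012) and at -0.52 with library totals (adjusted p = 0.00462). The fatty acid receptor PPARA fell from 11.8 ± 1.37 to 2.37 ± 0.973 CPM and NR5A2, a factor of bile acid genes, from 12.1 ± 1.45 to 2.62 ± 0.212 CPM. The log2 fold change of PPARA was -2.32, but -0.37 with length offsets (edgeR adjusted p = 0.145) and -1.07 with GC and length offsets. That of NR5A2 was -2.20, but -0.95 and -0.56 under these settings. AHR fell from 16.2 ± 0.902 to 4.19 ± 0.96 CPM (log2 fold change -1.96, edgeR adjusted p = 5.55e-09), while its target CYP1A1 was higher with TMM scaling. TIPARP, another AHR target, fell from 6.09 ± 0.179 to 2.37 ± 0.0848 CPM (log2 fold change -1.36, edgeR adjusted p = 1.74e-07). Under GC and length offsets the value of AHR turned to 0.33 and that of TIPARP to 0.27. A link of AHR to either target was not tested. The vitamin D receptor VDR fell by 1.91 on the log2 scale, and by 0.97 with length offsets. NR1I2, the PXR gene, picked here after its values were seen, went from 3.24 ± 0.453 to 0.784 ± 0.22 CPM (log2 fold change -2.03, edgeR adjusted p = 1.29e-05), and stayed called lower with GC and length offsets (adjusted p = 2.96e-05). CYP3A5 was lower in Huh-7 KO too, as were 43.2% of all tested genes, and a link to NR1I2 was not tested. These are mRNA levels of bulk cells, in which fewer cells expressing a gene and less RNA per cell cannot be told apart.

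Between the untreated lines 12 of the 40 genes were higher and 25 lower in HCC-LM3, where 82.8% of all tested genes differed, 41.8% higher and 41% lower. Retinoic acid receptor RARG (61 ± 6.51 against 5.6 ± 0.359 CPM), TIPARP, an AHR target (35.9 ± 6.04 against 6.09 ± 0.179 CPM), VDR (23.1 ± 2.12 against 6.64 ± 0.648 CPM) and the AHR partner ARNT (49.4 ± 2.57 against 16.3 ± 1.08 CPM) were higher there. The liver factor CEBPA (14.8 ± 3.12 against 571 ± 42.6 CPM) and the bile acid receptor NR1H4 (0.0102 ± 0.0176 against 5.75 ± 0.646 CPM) were lower. AHR itself was at 17 ± 4.82 and 16.2 ± 0.902 CPM (SD, n = 3 each; log2 difference 0.07, edgeR adjusted p = 0.707).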

How the data were processed

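Total RNA of 12 libraries was sequenced on an Illumina NovaSeq instrument, per the labels' protocols. The authors deposited, for 58884 genes, estimated counts of reads, of which 7.49% to 13.3% in a library were not whole. The same deposited table holds TPM values, which sum to 977632 to 998831 in a library. For the counting tool, annotation and strand setting, each is not given in the sources used here. The submitters' processing notes list the aligner Bowtie (0.12.2) with mm8 and mm9, mouse builds that do not go with the table's human gene IDs, and 99.54% of those IDs are in GENCODE 29. No gene coordinates come from the deposited table.

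Counts were rounded and fitted with edgeR 4.0.16 in R 4.3.3 (TMM, filterByExpr over the 4 groups, 16537 genes, robust quasi-likelihood, 1 mean per group, 8 residual degrees of freedom). Every adjusted p is Benjamini-Hochberg over all genes tested, called under 0.05, and is edgeR's unless another tool is named. The ± after a log2 fold change is a standard error, and after CPM or TPM an SD over 3 libraries. Alternatives used DESeq2 1.42.0, limma 3.58.1, other scalings and filters, offsets from splines with 5 degrees of freedom on gene length or on GC content and length (99.7% of tested genes had a GC value), and leaving out each library. The scripts were tested on simulated data. A lower bound on a fold sets a library at 0 to 3 counts. Library depth and these floors cover counting error only. An exact permutation test of 3 against 3 libraries cannot go below 0.1 and was not used. Members described library by library averaged at least 5 CPM in a group, or at least 1 CPM and were called in a knockout comparison. Single values of other members are named where a call rests on them, and a few listed genes are not reported here. The members, lists and naming rule were chosen with earlier results of these data known.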

Additional observations from a re-analysis of the deposited data

Results flagged for a closer look

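The knockout effect differed between HCC-LM3 and Huh-7 for 11 members by the edgeR test of the difference itself (log2 effect in HCC-LM3 minus that in Huh-7, ± SE, Benjamini-Hochberg adjusted p). By edgeR adjusted p, it was higher in HCC-LM3 for CYP3A5 (3.01 ± 0.44, adjusted p = 4.35e-07), CYP4F3 (2.99 ± 0.63, adjusted p = 0.000109), CYP2C18 (2.73 ± 1.20, adjusted p = 0.0481), CYP20A1 (2.09 ± 0.39, adjusted p = 2.05e-05), CYP26B1 (1.40 ± 0.19, adjusted p = 6.23e-08) and CYP2S1 (0.45 ± 0.17, adjusted p = 0.0198). By the same edgeR adjusted p, it was lower there for CYP27C1 (-3.25 ± 1.22, adjusted p = 0.0205), CYP11A1 (-1.99 ± 0.78, adjusted p = 0.0297), CYP27A1 (-1.63 ± 0.54, adjusted p = 0.0108), CYP1A1 (-1.36 ± 0.17, adjusted p = 2.48e-08) and CYP27B1 (-0.79 ± 0.31, adjusted p = 0.0244). The call was lost under 14 alternatives for CYP2C18, 8 for CYP2S1, 7 for CYP11A1, 6 for CYP27B1 (besides 1 in which it turned), 4 for CYP27C1, 3 for CYP27A1, 1 for CYP1A1 and 1 for CYP26B1. Library totals alone ended those of CYP1A1, CYP11A1, CYP27A1 and CYP27C1, and that of CYP27B1 turned there. Among the 40 partner genes, 29 differed between the lines in the same test, which called 61.6% of all tested genes.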

How the results depend on the processing

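The 4 member calls in HCC-LM3 became 2 with DESeq2 size factors, 2 with the DESeq2 Wald test and 2 with limma-voom, and ranged from 0 to 4 when 1 library was left out. The 16 calls in Huh-7 became 10 with GC and length offsets and ranged from 13 to 17 without 1 library. The 11 differences between the lines became 7 with these offsets and ranged from 7 to 11 without 1 library. The 21 differences between the untreated lines stayed within 1.5 times of that count in all 22 alternatives.

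Some values changed sign. With library totals the called Huh-7 rises of CYP1A1 (1.02), CYP26C1 (1.08) and CYP27B1 (0.99) became -0.09, -0.02 and -0.12, the called CYP27B1 difference between the lines went from -0.79 to 0.16 and the WT difference of CYP2S1 was 0.38. Under GC and length offsets CYP27B1 was at -0.07 in HCC-LM3, CYP2B6 at 0.40 in Huh-7 and the WT difference of CYP2S1 at 0.43. With length offsets CYP2B6 and CYP2S1 were at 0.58 and 0.28 in Huh-7 and CYP2S1 at 0.03 between the WT lines. In Huh-7, CYP2B6 was at 0.43 and CYP2S1 at 0.38 with DESeq2 size factors and with the Wald test. CYP2B6 was at 0.02 with limma-voom and 0.03 with at least 1 CPM in 3 libraries, and with only the 2 groups compared CYP2B6 was at 0.07 and CYP2S1 at 0.02. Without a filter the WT difference of CYP2S1 was 0.05. Leaving out 1 library gave -0.13 to 0.10 for CYP2B6 and -0.16 to 0.02 for CYP2S1 in Huh-7, and -0.08 to 0.08 for CYP2S1 between the WT lines. The cause was not tested.

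Same-numbered libraries showed no shared deviation (HCC-LM3 correlations of -0.039, 0.0827 and -0.106, Huh-7 correlations of -0.0131, -0.0417 and 0.00508), and the main fit did not pair them. These correlations cannot tell whether same-numbered libraries were handled together. With the replicate block 3, 15, 10 and 21 members were called in HCC-LM3, in Huh-7, in the difference and between the WT lines, and CYP2B6 was at 0.01 in Huh-7. Members with a few counts a library cannot show moderate changes at this depth.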
